A study of Mus musculus with 4 samples.

Results

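The Hox genes of clusters A to D were followed between cells of the E15.5 mouse kidney that were positive for a green fluorescent reporter named Six2GFP and cells sorted from such kidneys as negative for it. The members were all non-control probes whose gene name on the array was Hoxa, Hoxb, Hoxc or Hoxd followed by a number. This gave 44 probes for 39 genes, of 39395 probes under 31809 names in all. Values are log2 signals relative to the 75th percentile of the array, so 0 is the signal that 75% of probes stay under. A probe was tested where both arrays of either group had it well above background, as held for 39 of the 44 Hox probes, which represent 36 genes, and for 30012 probes overall.

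Six2GFP-positive cells (2 arrays) and Six2GFP-negative cells (2 arrays) were parted by fluorescence-activated sorting from kidneys of mice of mixed 129 and C57BL/6 background, and RNA of each sample was hybridised to 1 one-colour array. Both groups come from Six2GFP kidneys, and what drives the reporter beyond its name is not given in the labels. Six2 is a transcription factor of the cap mesenchyme, which holds the nephron progenitors, so the negative cells are taken here as the other cells of the dissected kidney, although their cell type label also reads nephron progenitor. A description attached to every sample mentions tamoxifen, which the protocols do not, and no such treatment is assumed here. Nothing says that the 2 samples of a group came from separate litters or sorts, so p-values measure the spread between these samples only.

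Hox genes encode homeodomain transcription factors that give position along the body axis. They lie in 4 clusters, in each of which the genes are transcribed in the same direction and numbered by paralogue group. Genes of low number are switched on first and furthest forward in the embryo, those of high number later and further back. The kidney forms from mesoderm at a posterior level, and in the mouse the genes of paralogue group 11 are needed together for its induction, acting with Eya1 and Pax2 on Six2 and on the gene of the growth factor GDNF. Paralogue group 10 is also needed for a normal kidney.

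The sort was reflected in the marker genes. Six2 itself stood at 5.58 and 5.74 on the positive arrays, against -0.17 and -0.15 on the negative arrays. Of 12 nephron progenitor markers 10 were higher and none lower in positive cells, where 21.1% of all probes tested were higher and 18.2% lower. Their summed signals, in multiples of the array's 75th percentile, were 214 and 209 on the positive arrays against 39.2 and 40.4 on the negative arrays. Of 12 stromal markers 11 were lower, with sums of 17.7 and 14.9 on the positive arrays against 114 and 104 on the negative arrays. Of 12 ureteric bud markers 11 were lower and 1 higher (3.62 and 2.87 in positive cells, 28.6 and 36.3 in negative cells). All 7 erythroid markers were lower (20.2 and 29.8 in positive cells, 532 and 499 in negative cells). Other lists were less uniform. Of 8 leukocyte markers 5 were lower and 3 did not pass. Of 7 neural markers tested 2 were higher and 3 lower, with sums of 4.35 and 4.23 in positive cells against 2.26 and 2.25 in negative cells. The higher sums in positive cells rest on Elavl4, the brightest of these markers (1.74 and 1.67, against -0.29 and -0.30 in negative cells). Foxd1, which marks stromal progenitors, was the stromal marker that did not pass (0.28 and 0.60 in positive cells, 0.71 and 0.60 in negative cells). Most markers of these other cells were still well above background in positive cells, with Tbx18, Upk1b and Epb42 among those that were not. These levels differ between the groups alongside every Hox difference below, and their part in it was not tested. On the arrays 75.2% and 72.5% of spots were well above background in positive cells, against 79.1% and 76.8% in negative cells, and no spot was saturated.

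The probes are 60 bases long. Their last 30 bases are shown for the genes on which the results turn, with the polyadenylation hexamers AATAAA and ATTAAA in capitals where they occur. These are genes of the posterior end of the Hoxa and Hoxd clusters, together with Hoxd8 and Hoxd1. Hoxd13, Hoxd8 and Hoxd1 were lower in positive cells and the others higher. Positions of the whole probes are given in mm9. The Hoxd probes are on the plus strand and the Hoxa probes on the minus strand, as are their clusters.
Hoxd13, chr2:74509248-74509307: tatttttgtagatacagtgtgtgtgagcag
Hoxd12, chr2:74515664-74515723: ttttgattttgtaaaataacacttccctgt
Hoxd11, probe 1, chr2:74522136-74522195: caatatttcactggaaaccccttattttga
Hoxd11, probe 2, chr2:74525014-74525073: ggcgttggcaacttagctgagcatgtactt
Hoxd8, chr2:74545171-74545230: atcagcgctagatgattgaatataaaatgc
Hoxd1, chr2:74603000-74603059: ttataccttggcatcagttactcaaacttg
Hoxa11, chr6:52192107-52192166: caaaagactgtaAATAAAgaaaccataacc
Hoxa10, chr6:52181922-52181981: ggaagcatggacattcaggttagctaaagg
Of all 44 Hox probes 11 hold one of the hexamers somewhere in their 60 bases. The homeobox is conserved between paralogues, so the probes were compared with each other. They were not compared with the transcripts of other Hox genes, so binding of a probe to a paralogue's transcript was not tested. Over 941 pairs of probes for different Hox genes, the longest run of identical bases was 11, found between Hoxc11 and Hoxc12 and between Hoxb4 and Hoxc11.

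Most Hox genes were higher in Six2GFP-positive cells. Of the 39 probes tested, 24 were higher (61.5%), for 21 genes, against 21.1% of all probes tested. A further 5 were lower (12.8%), against 18.2% of all probes, and Hoxd1, Hoxd8, Hoxd9 and Hoxd13 were among them. The remaining 10 did not pass an adjusted p of 0.05. The median log2 difference, positive minus negative, was 0.74 over the Hox probes and 0.15 over all probes. In sorted pools such as these, more cells with a transcript and more transcript per cell cannot be told apart.

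Both positive arrays lay above both negative arrays for 26 Hox probes (47.6% of all probes did so), below them for 7 (27.5% of all probes), and 6 overlapped. Differences of at least 2-fold past the threshold were found for 13 Hox probes upward and 4 downward, where 3.68% of all probes were higher and 12.6% lower by that much. None of the 29 Hox calls changed sign under any alternative setting, and 16 passed under all settings in which they were tested. Centring each array on its median instead raised the median of all probes to 0.41 and that of the Hox probes to 0.99. That centring shifts every log2 difference by the same amount, so the 0.58 between the medians was unchanged by construction.

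**Figure D1:**
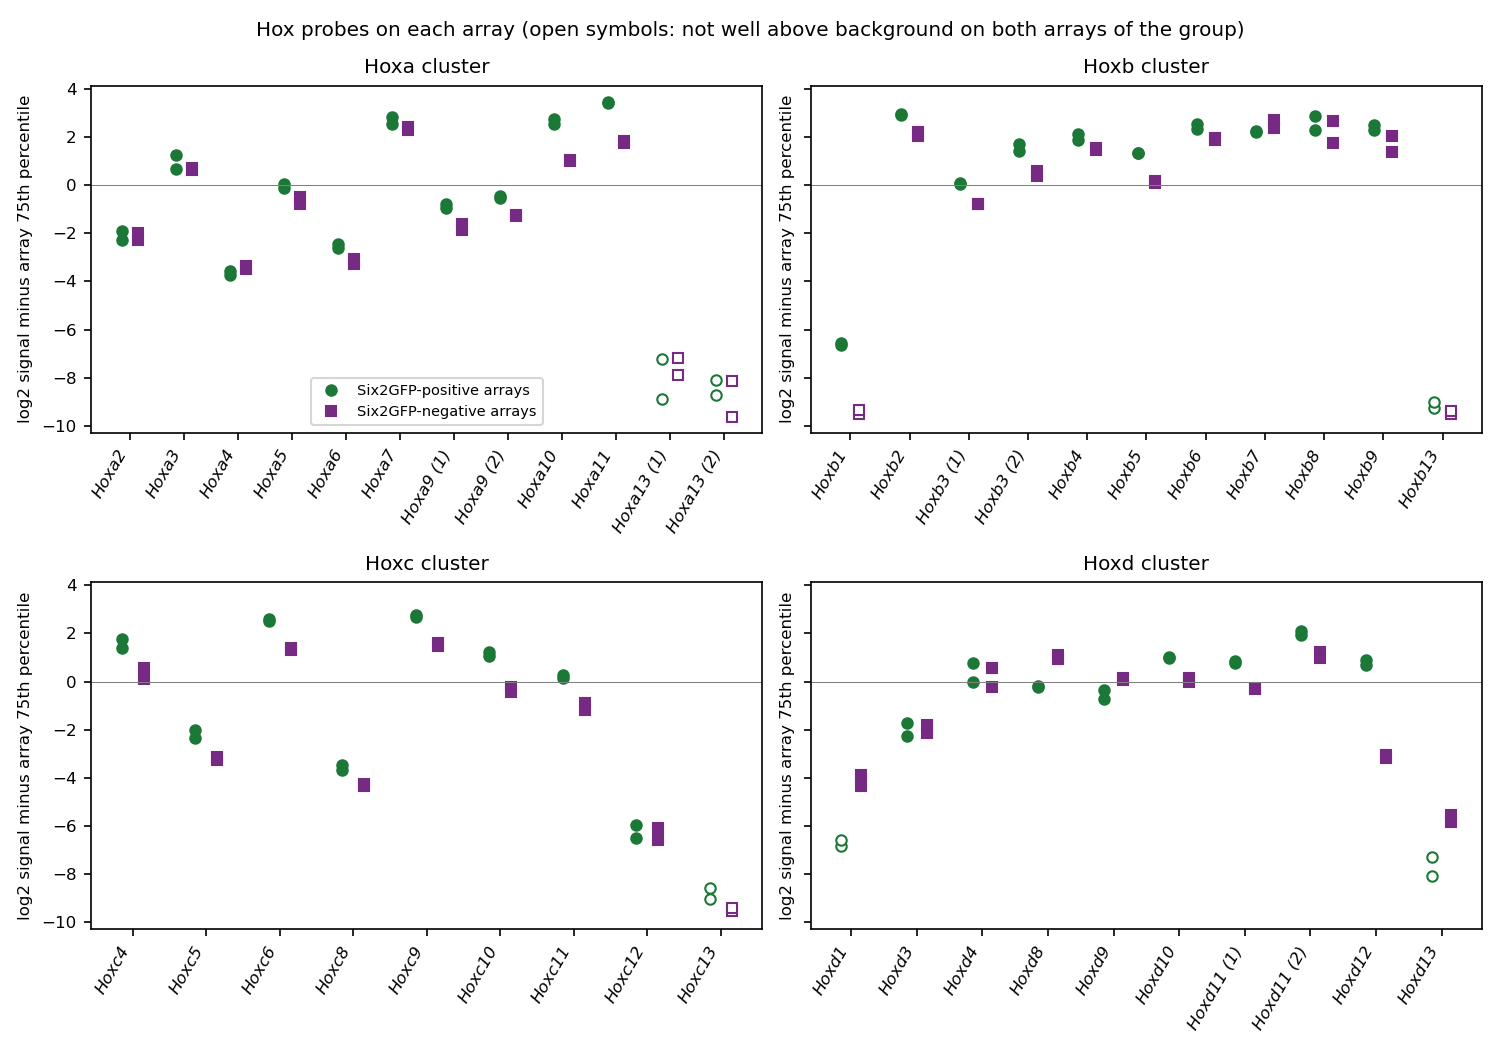
Log2 signal minus the array's 75th percentile (vertical axis) of 42 Hox probes on each array, 1 panel per cluster, with probes in order of paralogue number. Green circles are the 2 Six2GFP-positive arrays and purple squares the 2 Six2GFP-negative arrays, and open symbols mark probes that were not well above background on both arrays of the group. Hoxd12 stands at 0.71 and 0.91 on the positive arrays and at -3.18 and -3.05 on the negative arrays.

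By position in the cluster, counts of higher probes were largest in paralogue groups 9 to 13, but not at their far end. In group 12, 1 of 2 probes was higher. Of 5 probes of group 13 only 1 was tested, and it was lower. Over all probes tested, 21.1% were higher and 18.2% lower. Of 9 tested probes of paralogue groups 1 to 3, 4 were higher and 2 lower, with a median of 0.28. Of 15 probes of groups 4 to 8, 9 were higher and 1 lower (median 0.51), and of 15 probes of groups 9 to 13, 11 were higher and 2 lower (median 0.96). All 7 probes of groups 10 and 11 were higher, by 0.91 to 1.66, with a median of 1.28. Both positive arrays lay above both negative arrays for all 7, as they did for 47.6% of all probes. The 3 genes of group 5 and the 3 genes of group 6 were higher too, by 0.59 to 1.21 and by 0.51 to 1.22. Neither gene of group 7 passed the threshold.

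The clusters differed in their counts, which stand beside 21.1% higher and 18.2% lower over all probes tested. In cluster C 7 of 8 tested probes were higher and none lower, with a median of 1.20. Cluster B had 7 of 10 higher and none lower (median 0.75), and cluster A 6 of 11 higher and 1 lower (median 0.59). Cluster D was split, with 4 of 10 higher and 4 lower, and its median of 0.10 lay below that of all probes. The differences between clusters and between positions were not tested.

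**Figure D2:**
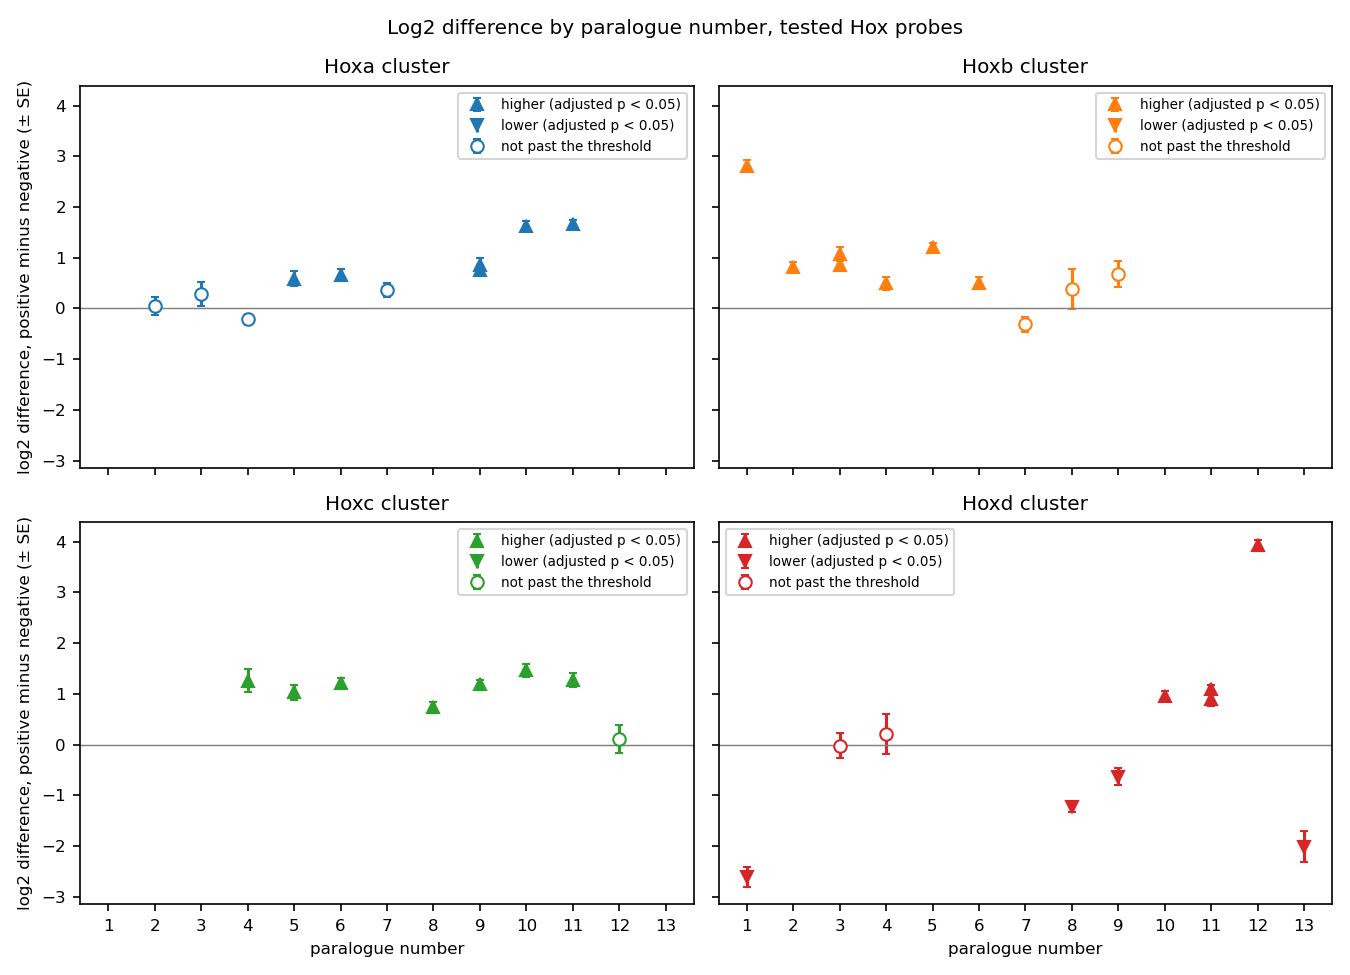
Log2 difference, Six2GFP-positive minus Six2GFP-negative, with its standard error (vertical axis), against paralogue number (horizontal axis) for 38 tested Hox probes, 1 panel per cluster. Filled upward and downward triangles passed an adjusted p of 0.05 and open circles did not. In cluster A the differences plotted reach 1.66 for Hoxa11, whereas cluster D holds both the highest difference, 3.93 for Hoxd12, and the lowest, -2.61 for Hoxd1.

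Within cluster A the difference followed the order of the genes. Across the 10 probes described here, Spearman's rank correlation of paralogue number and log2 difference was 0.92. In cluster D it was 0.44 over 10 probes, and 0.77 over the 8 left without the end genes Hoxd1 and Hoxd13. In cluster B it was -0.67 over 10 probes and -0.54 without Hoxb1. In cluster C it was -0.05 over 8 probes and 0.43 without Hoxc12. The genes left out differed between clusters and followed no rule set in advance. In clusters B, C and D leaving them out raised the coefficient. Over all 39 probes it was 0.28. These coefficients describe probes that share the same 4 arrays, and each cluster is 1 stretch of chromosome, so no p is given.

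The Hoxa cluster is taken first, from its posterior end. Values after ± are standard errors from limma for the log2 difference (n = 2 arrays per group), and p-values are limma's, adjusted by Benjamini-Hochberg over all 30012 probes. Hoxa13, which shapes the digits and the genital tract, was not well above background on both arrays of either group by any of its 2 probes, and it was not tested. Their signals lay between -8.89 and -7.20 on the positive arrays and between -9.62 and -7.20 on the negative arrays.

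Hoxa11, one of the group 11 genes on which kidney induction depends, stood at 3.43 and 3.47 on the positive arrays, against 1.74 and 1.84 on the negative arrays. Its probe is printed on 10 spots, all of them well above background on each array, and the standard deviation over spots was at most 0.07. Both positive arrays were far above both negative ones, a difference of 1.66 ± 0.09 or 3.16-fold (adjusted p = 0.00105). Hoxa10, of the neighbouring group, stood at 2.56 and 2.74 on the positive arrays, against 1.03 and 1.01 on the negative arrays. The groups did not overlap, and the difference was of the same order (1.63 ± 0.10, adjusted p = 0.00156). Hoxa9, known for its part in blood cell formation and leukaemia, has 2 probes. The first gave -0.95 and -0.80 in positive cells, against -1.60 and -1.86 in negative cells, and the other -0.46 and -0.54, against -1.22 and -1.30 in negative cells. They were close in size, with differences of 0.85 ± 0.13 and 0.76 ± 0.09 (adjusted p = 0.0152 and 0.00742).

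Towards the anterior end the differences became smaller. Hoxa7 stood at 2.56 and 2.85 on the positive arrays, against 2.27 and 2.41 on the negative arrays, which did not overlap, though the difference of 0.36 ± 0.14 did not pass (adjusted p = 0.113). Hoxa6 was at -2.60 and -2.44, against -3.08 and -3.27 on the negative arrays (0.65 ± 0.12, adjusted p = 0.0226). Hoxa5, a gene of lung and neck development, was at 0.05 and -0.13, against -0.47 and -0.79 on the negative arrays (0.59 ± 0.15, adjusted p = 0.0478). The positive arrays were the higher ones for both genes, by margins near the limit of this design: without any 1 of the 4 arrays the adjusted p was 0.0511 to 0.0985 for Hoxa6 and 0.0558 to 0.165 for Hoxa5. The first of the Hoxa9 probes lost its call without positive array 2 (adjusted p = 0.0688) or negative array 2 (0.0560).

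Hoxa4, Hoxa3 and Hoxa2 did not pass. Hoxa4 was at -3.55 and -3.72 in positive cells, against -3.34 and -3.50 in negative cells (-0.22 ± 0.11, adjusted p = 0.206). Hoxa3, needed for the thymus and parathyroids, was at 0.66 and 1.26, against 0.62 and 0.73 in negative cells (0.28 ± 0.23, adjusted p = 0.374). Hoxa2, which sets the identity of the second branchial arch, was at -2.27 and -1.92, against -1.997 and -2.29 in negative cells (0.05 ± 0.18, adjusted p = 0.842). The arrays of the groups overlapped for Hoxa3 and Hoxa2, while both positive arrays were below both negative ones for Hoxa4.

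In the Hoxb cluster Hoxb9, Hoxb8 and Hoxb7 were tested and did not pass the threshold, and Hoxb13 was not tested. Hoxb13, a gene of the prostate and tail, was not well above background in either group (-9.26 and -8.99 in positive cells, -9.52 and -9.37 in negative cells). Hoxb9 was at 2.30 and 2.48 on the positive arrays, against 1.37 and 2.06 on the negative arrays. The negative arrays lay far apart there, and the difference of 0.68 ± 0.26 did not pass (adjusted p = 0.115), but without negative array 2 it was 1.02 (adjusted p = 0.0367). Hoxb8 was at 2.28 and 2.89 in positive cells, against 1.74 and 2.66 in negative cells (0.38 ± 0.40, adjusted p = 0.482). Here array 2 was the higher one in both groups and the groups overlapped.

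Hoxb7, whose promoter is widely used to mark the ureteric bud, was at 2.26 and 2.20 in positive cells, against 2.37 and 2.71 in negative cells. Both positive arrays were lower, but the difference of -0.31 ± 0.14 did not pass (adjusted p = 0.162). It passed after normexp background correction with quantile normalization (-0.44, adjusted p = 0.0287). With centring on the array median it was -0.06 (adjusted p = 0.790). Ureteric bud markers were lower in the same positive cells, as given above, and their part in the Hoxb7 difference was not tested.

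From Hoxb6 forward all Hoxb genes were higher in positive cells. Hoxb6 was at 2.53 and 2.35, against 1.89 and 1.98 in negative cells (0.51 ± 0.11, adjusted p = 0.0304). Hoxb5, which acts in the lung and the enteric nervous system, was at 1.33 and 1.34, against 0.08 and 0.17 in negative cells. With tight replicates it had one of the largest differences of the cluster (1.21 ± 0.09, adjusted p = 0.00209). Hoxb4, known from blood stem cells, was at 2.13 and 1.86, against 1.54 and 1.46 in negative cells (0.50 ± 0.13, adjusted p = 0.0487). The calls of Hoxb4 and Hoxb6 were marginal: without any 1 array the adjusted p was 0.0632 to 0.158 and 0.0709 to 0.126, and with quantile normalization 0.0927 and 0.0568.

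Hoxb3 has 2 probes. One was at 0.05 and 0.10 on the positive arrays, against -0.77 and -0.78 on the negative arrays (0.85 ± 0.08, adjusted p = 0.00456). The other was at 1.44 and 1.70, against 0.40 and 0.59 on the negative arrays (1.08 ± 0.14, adjusted p = 0.00976, and 0.0503 without negative array 1). Hoxb2, like Hoxb3 a gene of the hindbrain, was at 2.97 and 2.94, against 2.06 and 2.22 in negative cells (0.82 ± 0.10, adjusted p = 0.00827). All of these arrays separated by group.

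Hoxb1, a gene of the fourth rhombomere of the hindbrain, was dim. Its probe is on 10 spots, of which 8 were well above background on each positive array and none on a negative array. The mean signal was -6.66 and -6.54 on the positive arrays, against -9.49 and -9.33 on the negative arrays. Taken against the lowest signal well above background on each negative array, and without normexp correction, Hoxb1 was 1.62-fold higher in positive cells. The adjusted p of the measured difference was 0.000586. After normexp correction, which compresses dim signals, the log2 difference was 0.46 and 0.32 with percentile and quantile scaling (adjusted p = 0.00716 and 0.0159), in place of 2.81 ± 0.11.

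In the Hoxc cluster every called gene was higher. Hoxc13, a gene of hair and nails, was not well above background in either group (-8.59 and -9.02 in positive cells, -9.55 and -9.40 in negative cells). Hoxc12 was at -5.96 and -6.49, against -6.08 and -6.58 in negative cells, with overlapping arrays (0.11 ± 0.27, adjusted p = 0.771). From Hoxc11 to Hoxc4 every gene was higher in positive cells.

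Hoxc11, the group 11 gene of this cluster, was at 0.28 and 0.16 on the positive arrays, against -1.20 and -0.91 on the negative arrays (1.28 ± 0.14, adjusted p = 0.00584). Hoxc10, which specifies lumbar motor neurons, was at 1.21 and 1.05, against -0.44 and -0.22 on the negative arrays. This was the largest difference of the cluster (1.46 ± 0.12, adjusted p = 0.00317). Hoxc9, which acts in thoracic motor neurons, was at 2.76 and 2.70, against 1.48 and 1.59 on the negative arrays (1.19 ± 0.09, adjusted p = 0.00257). For all 3 of these genes the 2 arrays of a group lay closer to each other than to any array of the other group.

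Hoxc8, a gene of the thoracic skeleton, was at -3.47 and -3.66 in positive cells, against -4.26 and -4.35 in negative cells (0.74 ± 0.11, adjusted p = 0.0137). Hoxc6 was at 2.52 and 2.61, against 1.39 and 1.31 in negative cells (1.22 ± 0.09, adjusted p = 0.00242). Hoxc5 was at -2.33 and -2.01, against -3.15 and -3.25 in negative cells (1.03 ± 0.14, adjusted p = 0.0115). All 3 genes had both positive arrays above both negative ones. Hoxc4 was at 1.77 and 1.41, against 0.56 and 0.10 in negative cells (1.26 ± 0.22, adjusted p = 0.0197), with more spread in each group. The Hoxc8 call was lost without positive array 1 (adjusted p = 0.0602) or either negative array (0.0536 and 0.0673). The Hoxc5 call was lost without either negative array (0.0521 and 0.0633), and the Hoxc4 call without positive array 1 or negative array 2 (0.0663 each).

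The Hoxd cluster held calls in both directions, grouped in runs along the chromosome. Its probes span 93.8 kb of chromosome 2. Hoxd13, which patterns the digits and the genital tubercle, was at -7.31 and -8.09 on the positive arrays, where it was not well above background, against -5.84 and -5.53 on the negative arrays. Taken against the lowest signal well above background on each positive array, and without normexp correction, it was 2.57-fold lower in positive cells. The measured difference was -2.01 ± 0.31 (adjusted p = 0.0144). This call is fragile: the adjusted p was 0.0567 and 0.0735 without negative array 1 or 2, and after normexp correction with percentile scaling the difference was -0.17 (adjusted p = 0.104).

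Hoxd12, whose probe lies 6.42 kb away from that of Hoxd13, went the other way. Hoxd12 stood at 0.71 and 0.91 on the positive arrays, against -3.18 and -3.05 on the negative arrays. The probe was well above background on all 4 arrays, and the gap between groups was far wider than the gaps between replicates. The difference of 3.93 ± 0.12, or 15.2-fold, was the largest of the Hox probes (adjusted p = 0.000484). Over the 14 alternative settings it ran from 3.52 to 4.18 and passed in each. Its neighbour on the other side, Hoxd11, is the group 11 gene of the cluster. Its probe 1 was at 0.79 and 0.84 in positive cells, against -0.31 and -0.26 in negative cells, and probe 2 at 1.94 and 2.09, against 0.97 and 1.24 in negative cells. Both were higher, by 1.10 ± 0.09 and 0.91 ± 0.14 (adjusted p = 0.00257 and 0.0136), the second losing its call without positive array 2 (0.0627). Hoxd10 was at 0.99 and 1.03 in positive cells, against 0.14 and -0.04 in negative cells (0.96 ± 0.10, adjusted p = 0.00584). Thus Hoxd10, Hoxd11 and Hoxd12 formed a run of higher genes with Hoxd13 on one side.

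On the other side of that run the sign turned again. Hoxd9 was at -0.34 and -0.73 in positive cells, against 0.14 and 0.05 in negative cells (-0.63 ± 0.16, adjusted p = 0.0474). Its call was lost with centring on the array median (-0.38, adjusted p = 0.0908) and without positive array 2 or either negative array (0.124 to 0.151). Hoxd8 was at -0.18 and -0.21 in positive cells, against 0.95 and 1.12 in negative cells. With tight replicates the difference of -1.23 ± 0.10 passed (adjusted p = 0.00301), as it did in every alternative tried. The paralogues Hoxa9, Hoxc9 and Hoxc8 were higher, so the members of groups 8 and 9 did not share a direction.

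The anterior Hoxd genes ended with another low gene. Hoxd4 was at -0.01 and 0.75 in positive cells, against -0.23 and 0.56 in negative cells (0.21 ± 0.40, adjusted p = 0.693). Hoxd3 was at -2.26 and -1.72, against -2.14 and -1.80 in negative cells (-0.02 ± 0.24, adjusted p = 0.956). For both genes the groups overlapped and array 2 was the higher one in each group. Hoxd1, a gene of pain-sensing neurons in the mouse, was at -6.82 and -6.59 on the positive arrays, where it was not well above background, against -4.32 and -3.88 on the negative arrays. As measured it was 6.09-fold lower in positive cells (difference -2.61 ± 0.20, adjusted p = 0.00233). Its dim signal lay above the lowest signal called well above background on the positive arrays. No separate fold against that lowest signal was therefore available, and 6.09-fold is not a minimum. After normexp correction the difference was -0.81 and -0.84 with percentile and quantile scaling, and it passed in each alternative in which it was tested. Hoxb1, of the same paralogue group, was higher, so these genes did not share a direction either.

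The spread of some Hox genes between the arrays of a group was larger than usual for these arrays. The median absolute difference between the arrays of a group was 0.18 in positive and 0.17 in negative cells over the Hox probes, against 0.12 and 0.14 over all probes. Hoxd4 was higher on array 2 than on array 1 by 0.76 in positive and by 0.79 in negative cells, and Hoxb8 by 0.61 in positive and 0.92 in negative cells. Hoxd3 also was higher on array 2 (0.55 in positive, 0.33 in negative cells), and Hoxc12 was lower on array 2 (-0.53 in positive, -0.50 in negative cells). Hoxd13 differed by -0.78 in positive cells, where it was not well above background, and by 0.31 in negative cells. Over the 39 probes the sign was the same in both groups for 22 and opposite for the others. The share over all probes was not computed. The labels do not say that samples of the same number share a litter or a day.

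**Figure D3:**
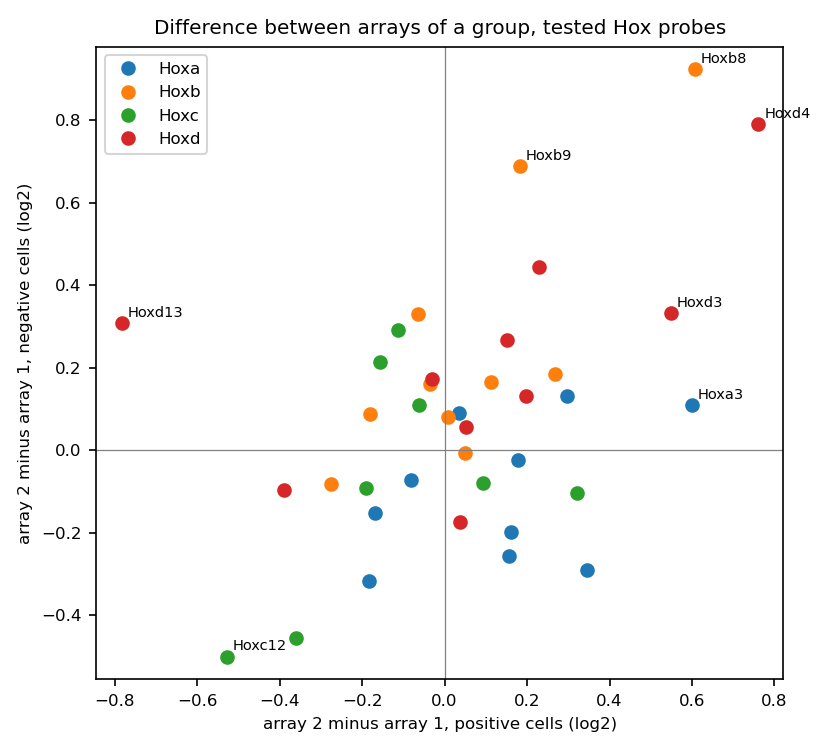
Log2 signal on array 2 minus array 1 in Six2GFP-positive cells (horizontal axis) and in Six2GFP-negative cells (vertical axis) for 38 tested Hox probes, coloured by cluster. Probes beyond 0.5 in either direction are named. Hoxb8 (0.61 and 0.92) and Hoxd4 (0.76 and 0.79) lie at the upper right, away from the other probes.

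Transcripts other than Hox genes lie between them, among them antisense and other non-coding RNAs. Of 17 such probes inside the 4 clusters 14 were tested, and 8 were higher and 1 lower, with a median of 0.66, beside 21.1% of all probes higher and 18.2% lower. On the strand of the Hox genes 5 of 6 were higher, and on the opposite strand 3 of 8. Hoxa11os, the antisense transcript of Hoxa11, was at 3.89 and 4.17 on the positive arrays, against 2.30 and 2.27 on the negative arrays. The sense and antisense probes thus moved the same way and by a similar amount, Hoxa11os by 1.75 ± 0.13 (adjusted p = 0.00225). Hoxb5os, on the strand opposite to Hoxb5, was at 3.68 and 3.75, against 1.68 and 1.91 on the negative arrays (1.92 ± 0.12, adjusted p = 0.00141). The Hoxb5os probe, at 94.5 kb from that of Hoxb13, lies nearest to the probe of Hoxb7 (93.4 kb), which did not pass. The probe of Hoxb5 lies at 109 kb. Hoxd3os1, in the Hoxd cluster and also on the opposite strand, was higher by 0.53 ± 0.12 (adjusted p = 0.0344). Its probe, at 38.9 kb from that of Hoxd13, lies nearest to the probe of Hoxd8 (35.9 kb), which was lower, and not to that of Hoxd3 (76.5 kb), which did not pass. The transcript that was lower, ENSMUST00000100525 in the Hoxb cluster, was not well above background on the positive arrays. Against the lowest signal well above background there, it was 1.28-fold lower (adjusted p of the measured difference = 0.00703).

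Strand was read from the coordinates of each probe and was not checked against gene names such as Hoxaas3. The same-strand probes called higher were Hoxaas3 in cluster A (0.84 ± 0.19, adjusted p = 0.0356) and Gm53 in cluster B (0.84 ± 0.15, 0.0210). The others were AI448005 and Gm14424 in cluster D (0.78 ± 0.14 and 0.91 ± 0.10, 0.0218 and 0.00662), and an unnamed probe of cluster B (0.43 ± 0.10, 0.0388). AI448005 and Gm14424 lie near Hoxd3 and Hoxd4, neither of which passed. Of 33 probes outside the clusters but within 200 kb, 26 were tested. Of these 6 were higher and 1 lower, with a median of 0.20, which is close to the 0.15 of all probes. Lnpk, 149 kb beyond the posterior end of the Hoxd cluster, was the lower one (-0.51 ± 0.08, adjusted p = 0.0165). On the same side Mrpl23-ps1, at 79.8 kb, was higher (0.66 ± 0.09, adjusted p = 0.0112), and Evx2, at 15.1 kb, did not pass (adjusted p = 0.266). Mtx2 on the other side of the Hoxd cluster did not pass (0.19 ± 0.08, adjusted p = 0.152).

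**Figure D4:**
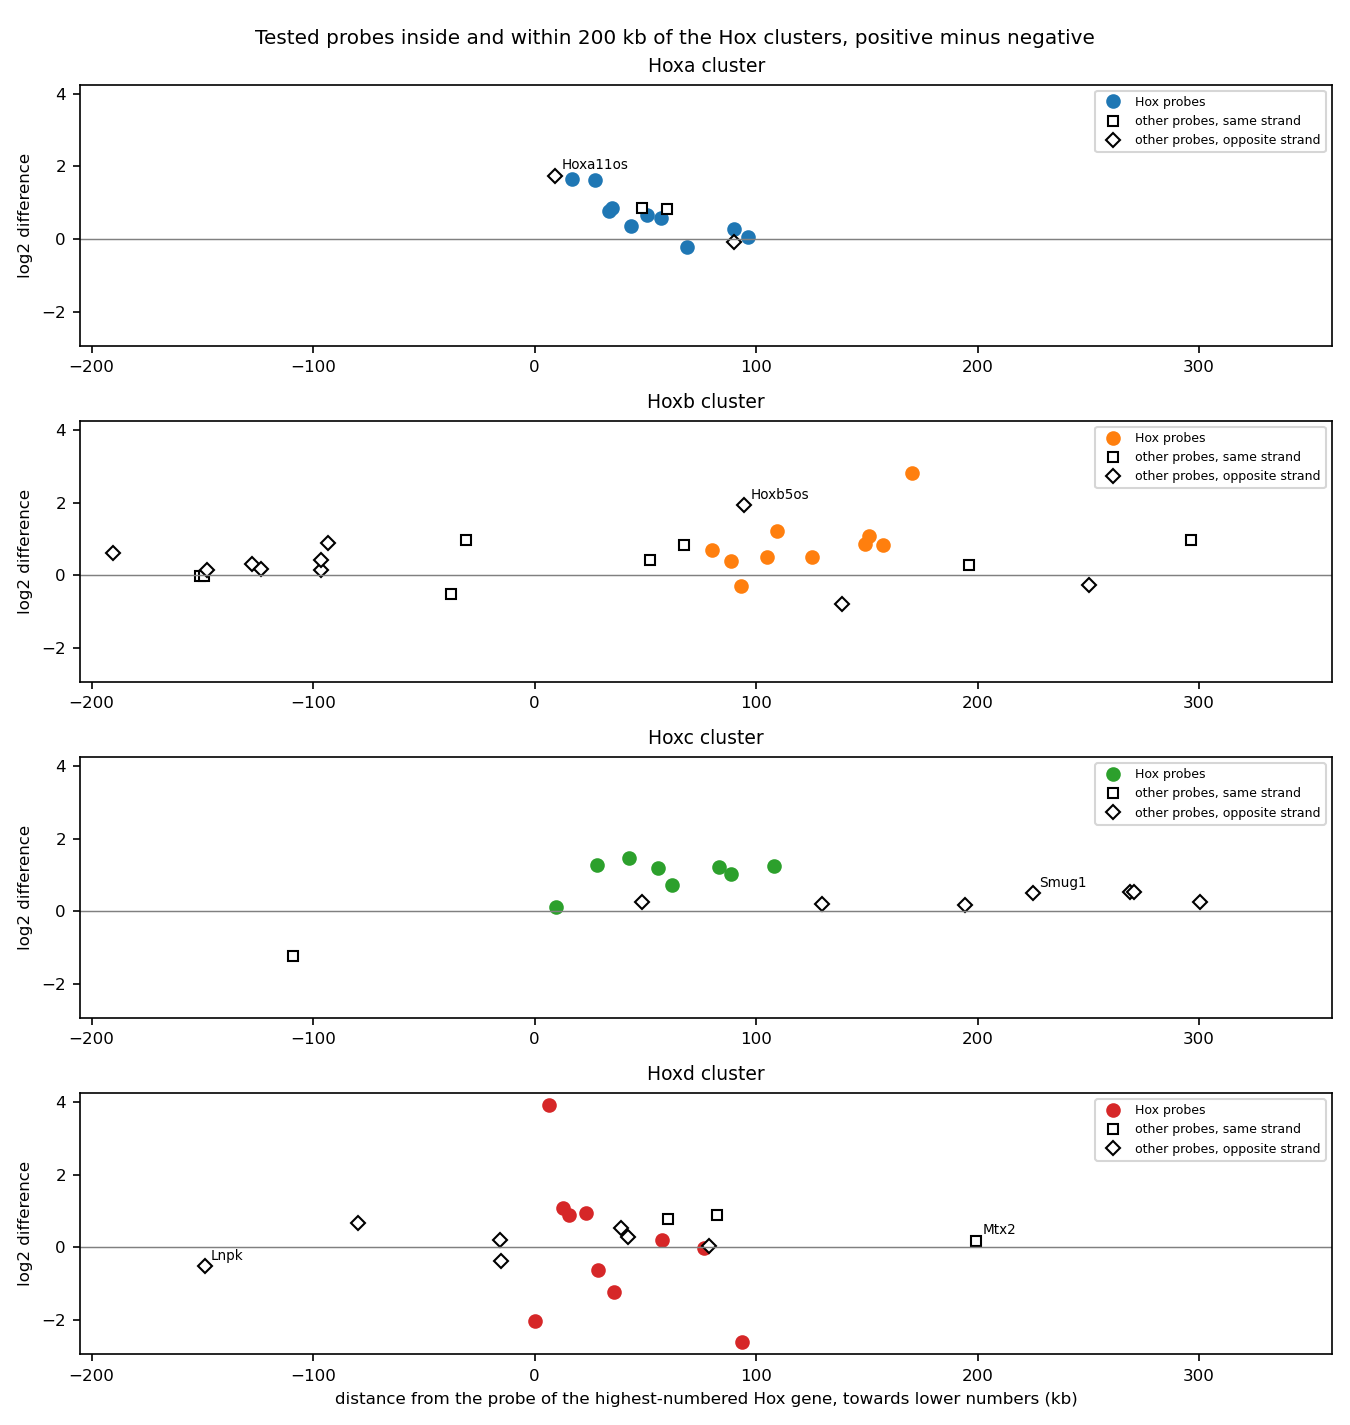
Log2 difference, Six2GFP-positive minus Six2GFP-negative (vertical axis), of tested probes along each Hox cluster and up to 200 kb beside it, by distance in kb from the probe of the highest-numbered Hox gene (horizontal axis, towards lower numbers). Filled circles are Hox probes, open squares other probes on the strand of the Hox genes and open diamonds other probes on the opposite strand. Hoxa11os at 1.75 and Hoxb5os at 1.92 stand with the highest Hox probes of their clusters, apart from Hoxb1.

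Promoter sequence was taken for genes whose neighbours moved with or against them. RefSeq windows on GRCm38.p6 were available for 22 of the 39 Hox genes, with 24 windows in all. The 250 bases before the start are shown, 5′ to 3′, for Hoxd12 and Hoxd13, adjacent genes called in opposite directions, and for Hoxd11 and Hoxa11, group 11 genes that were both higher. Motif matches are in capitals.
Hoxd13, chr2:74667975-74668224, plus strand: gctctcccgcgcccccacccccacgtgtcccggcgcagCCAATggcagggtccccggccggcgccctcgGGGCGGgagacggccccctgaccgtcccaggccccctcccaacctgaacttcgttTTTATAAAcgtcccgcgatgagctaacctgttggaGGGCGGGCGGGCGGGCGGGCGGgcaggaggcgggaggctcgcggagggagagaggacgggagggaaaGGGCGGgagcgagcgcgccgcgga
Hoxd12, chr2:74674763-74675012, plus strand: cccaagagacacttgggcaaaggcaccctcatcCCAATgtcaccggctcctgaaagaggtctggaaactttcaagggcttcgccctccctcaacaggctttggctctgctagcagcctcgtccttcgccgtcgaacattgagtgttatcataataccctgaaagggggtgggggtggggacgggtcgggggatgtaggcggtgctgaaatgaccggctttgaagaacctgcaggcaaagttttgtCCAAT
Hoxd11, chr2:74682073-74682322, plus strand: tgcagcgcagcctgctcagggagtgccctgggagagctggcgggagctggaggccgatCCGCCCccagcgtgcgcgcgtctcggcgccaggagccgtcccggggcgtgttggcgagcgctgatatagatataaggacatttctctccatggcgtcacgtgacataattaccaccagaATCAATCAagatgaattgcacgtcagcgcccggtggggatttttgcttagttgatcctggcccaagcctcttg
Hoxa11, chr6:52245811-52246060, minus strand: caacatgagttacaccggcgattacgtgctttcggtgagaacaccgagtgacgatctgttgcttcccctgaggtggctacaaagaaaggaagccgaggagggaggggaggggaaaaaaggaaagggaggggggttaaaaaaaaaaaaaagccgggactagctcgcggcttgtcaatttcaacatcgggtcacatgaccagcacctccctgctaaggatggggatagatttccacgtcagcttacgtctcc
The motifs searched on both strands were the TATA box TATAAA, the CCAAT box CCAAT, the GC box GGGCGG, the Pbx-Hox composite TGATNNAT, the Cdx and posterior Hox core TTTATNG and the Meis core TGACAG. Overlapping matches of a motif were kept.

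The Hoxd13 window is rich in CG dinucleotides, with 31, and holds 7 GC boxes, of which 5 overlap in a row at -91 to -70, as well as 2 overlapping TATA box matches and 1 CCAAT box. The Hoxd12 window has 10 CG dinucleotides and 2 CCAAT boxes, 1 of them directly before the start. The Hoxd11 window shown, that of the second of its 2 RefSeq starts, has 1 GC box and 1 Pbx-Hox composite at -73 to -66. The Hoxa11 window holds none of these motifs and lies within the body of Hoxa11os, whose RefSeq start is 567 bases from that of Hoxa11. Over the 24 Hox windows the median was 12.5 CG dinucleotides, against 6 over all 32851 windows. Of the 24 windows 14 held a CCAAT box (33.8% of all windows did) and 10 a GC box (32.7%). TATA box and Pbx-Hox composite were each in 4 of 24 (12.4% and 7.68% of all windows), and the Cdx and Meis cores in 2 each (9.81% and 15.9%). A match says only that these letters stand in the window.

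Hox proteins bind DNA together with TALE homeodomain cofactors of the Pbx, Meis and Pknox families. Of 9 such genes tested, by the brightest probe of each, 5 were higher and 3 lower in positive cells, with a median of 0.53 (over all probes 21.1% were higher and 18.2% lower, with a median of 0.15). Meis2 was at 4.18 and 4.10 on the positive arrays, against 2.79 and 2.90 on the negative arrays (1.30 ± 0.10, adjusted p = 0.00223). Pbx2 was higher by 0.88 ± 0.14 (adjusted p = 0.0163). Meis3 was higher by 0.85 ± 0.08 (adjusted p = 0.00468), but its 3 probes disagreed, from -0.43 to 1.24. The lower genes, named after their values were seen, were Meis1 (-0.68 ± 0.11), which is also a stromal marker, Pknox2 (-0.50 ± 0.09) and Pbx3 (-0.46 ± 0.10), with adjusted p-values of 0.0152, 0.0203 and 0.0310. Members of each of the 3 families were thus called in both directions.

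Partners and targets of the group 11 proteins in the kidney were nearly all higher in positive cells, 7 of 8 with a median of 1.48 (all probes: 21.1% higher, median 0.15). Six2, by whose reporter the cells were sorted, was higher by 5.82 ± 0.10 (adjusted p = 0.000477). Osr1, a transcription factor of early kidney mesoderm, was at 2.20 and 2.43 on the positive arrays, against -2.77 and -2.83 on the negative arrays (5.12 ± 0.12). Itga8, an integrin of the cap mesenchyme, was at 3.80 and 3.74, against 1.57 and 1.41 on the negative arrays (2.28 ± 0.10, adjusted p = 0.000785). Six2, Osr1, Itga8, Gdnf and Eya1 are also in the list of nephron progenitor markers. The count and median of this list are thus no observation independent of the sort. Eya1, a coactivator of homeodomain proteins, was at 4.57 and 4.53 on the positive arrays, against 4.47 and 4.55 on the negative arrays, and did not pass (0.04 ± 0.09, adjusted p = 0.736).

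**Figure D5:**
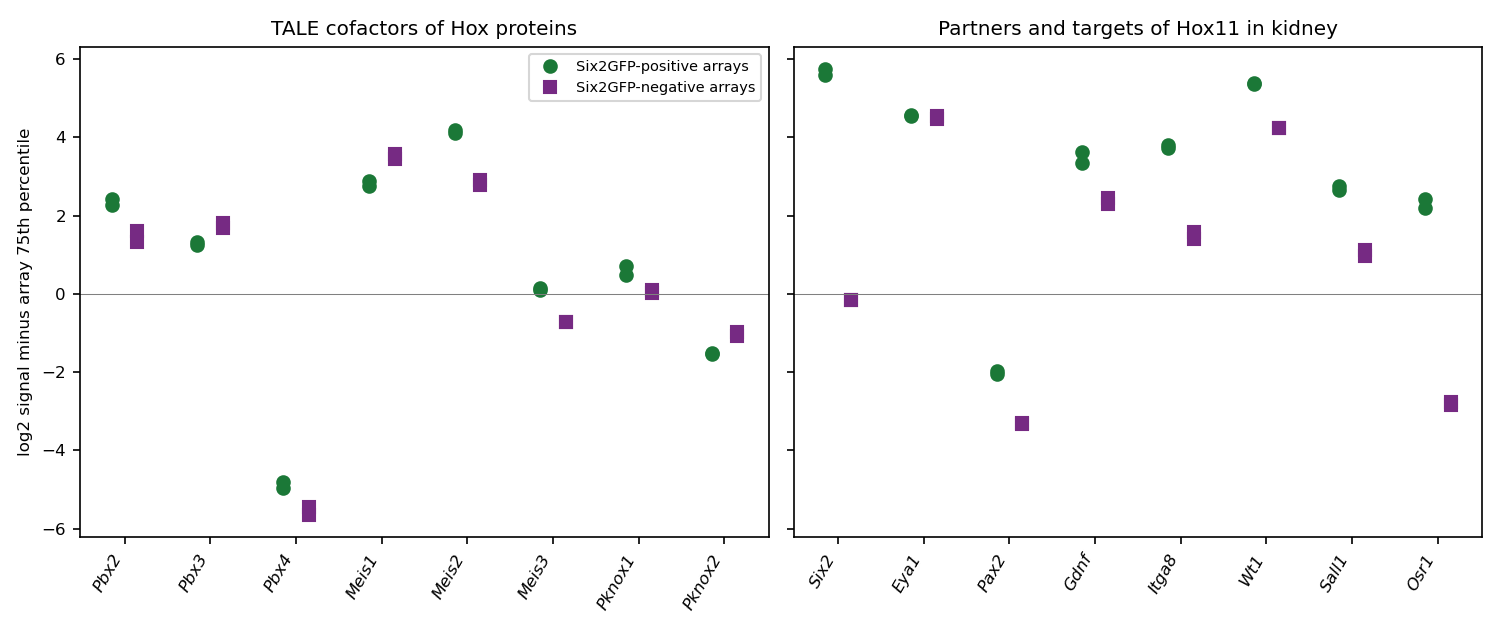
Log2 signal minus the array's 75th percentile (vertical axis) of the brightest probe of 8 TALE cofactor genes (left) and of each partner or target of group 11 Hox proteins (right). Green circles are the 2 Six2GFP-positive arrays and purple squares the 2 Six2GFP-negative arrays. Meis2 is higher in positive cells and Meis1 lower, and Eya1 is nearly level.

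Trithorax and Polycomb proteins keep Hox genes on or off by marking their chromatin. Of 22 genes tested 9 were higher and 2 lower, with a median of 0.30, against 21.1% higher, 18.2% lower and a median of 0.15 over all probes. Ezh1, a Polycomb methyltransferase, was at 2.96 and 3.12 in positive cells, against 1.93 and 1.92 in negative cells (1.11 ± 0.10, adjusted p = 0.00352). Kdm6b, which removes the Polycomb mark, was higher by 0.89 ± 0.09 (adjusted p = 0.00516), with 0.33 by its other probe. Cbx7, a Polycomb reader, was not well above background on the positive arrays. Against the lowest signal well above background there, it was 1.71-fold lower (adjusted p of the measured difference = 0.0277).

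Of 12 upstream regulators known from the embryo, 9 were tested, 1 was higher and 4 were lower, with a median of -0.37, where 21.1% of all probes were higher and 18.2% lower. Cdx2, Cdx4 and T, which act on Hox genes in the tail bud, were not well above background on both arrays of either group. Rarg, a retinoic acid receptor gene, was lower (-2.76 ± 0.09, adjusted p = 0.000518). Rarb, another retinoic acid receptor gene, was also lower (-1.90 ± 0.10, adjusted p = 0.00108), and Egr2 was the higher one (1.05 ± 0.27, adjusted p = 0.0457), both named after their values were seen. Of 6 podocyte markers 5 were lower in positive cells (summed signal 0.81 and 0.77 in positive cells, 6.35 and 5.58 in negative cells). The part of these cell types in the differences was not tested.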

How the data were processed

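RNA of sorted cells was labelled with Cy3 and hybridised to one-colour Agilent arrays of design 026655, per the labels' protocols and the file headers. Per the file headers, the scanner images were read by Feature Extraction 10.7.3.1 of Agilent (protocol GE1_107_Sep09), and probe positions are in mm9. The deposited files hold linear intensity values per spot, with no scaling between arrays. A deposited value table gives that processed intensity per probe: it matched the scanner files to within 0.01 log2 for 99.8% of probes on each array, so its scale is linear and uncentred. Its medians were 114 and 110 for the positive samples and 158 and 143 for the negative samples. It served as an alternative. No source used here says how the authors compared the groups.

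There were 43020 spots of 39429 non-control probes on an array. Between 108 and 174 outlier spots per array were left out, which removed 34 probes altogether. Spots of a probe were averaged, and log2 of the processed signal was taken minus the 75th percentile over probes, which corresponded to signals of 1430 and 1410 for positive cells and 1604 and 1587 for negative cells. Within each group the arrays correlated at 0.995 in log2 signal, against 0.945 to 0.950 between groups, across probes, which are not independent replicates. The number of arrays limits the precision.

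Each probe was tested with limma 3.58.1 in R 4.3.3 (two-sided, Benjamini-Hochberg adjustment over the 30012 probes kept), a fit checked on simulated data. All arrays were on 1 slide with 1 recorded scan time, so no batch could be fitted. Where a probe was not well above background in a group, the fold was taken against the lowest signal well above background on each array. The signal of the probe itself was used where that was higher, so that the fold of Hoxd1 is the measured one. Such folds are not minima, since a probe not well above background can lie above that lowest signal, as Hoxd1 did. They hold for the processed signal only, and not after normexp correction.

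Every Hox probe was analysed. Results of some genes of the clusters and lists are not reported here, and their probes are in the counts but not in the figures. Beside them the rule took all other probes inside or within 200 kb of a cluster, and at most the 3 largest differences past the threshold from each of 4 lists of cofactors, partners and regulators. Each listed gene was represented by its brightest probe. The members, lists and rule were chosen with earlier results of these data known. Symbols were updated through a RefSeq gene table for GRCm38.p6, by accession for 26034 probes. Alternatives were other scalings, background corrections and filters, the value table, the brightest probe per gene name, a variance trend, a block for the replicate number, and each array left out in turn.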

Additional observations from a re-analysis of the deposited data

How the results depend on the processing

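Of 29 Hox calls, 16 passed under every alternative in which they were tested and none changed sign. The number of higher Hox probes, 24, was 21 to 26 with other scalings, background corrections and filters and 17 to 18 with 1 array left out. The number of lower ones, 5, was 4 to 6 under most other settings, 2 to 5 with 1 array left out and 3 where probes had to be above background on all 4 arrays, which removes Hoxd1 and Hoxd13 by construction. Calls over all probes, 11806, were 18216 with centring on the array median, of which 74.5% were higher against 53.7%, because that centring raises every difference. They were 5890 to 6542 with 1 array left out, of which 30.02% to 41.0% were higher. The cause of that shift in the balance was not tested. With dim probes kept, 41.7% of calls were higher. The Hox median stayed above that of all probes by 0.41 to 0.62 in the alternatives.

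The reversals were all of probes that did not pass. Hoxa4 became 0.0376 with the array median, 0.0389 with quantile scaling, and 0.0384 when normexp preceded quantile scaling. Hoxd3 became 0.23, 0.14, 0.00467 and 0.13 with the array median, quantile normalization, and normexp with percentile or quantile scaling, and -0.29 to 0.26 with 1 array left out. That also gave -0.16 to 0.37 for Hoxc12, -0.12 to 0.22 for Hoxa2, -0.0153 to 0.58 for Hoxa3, -0.18 to 0.61 for Hoxd4 and -0.0787 to 0.84 for Hoxb8. The cause was not tested.

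With the replicate number as a block, 23 Hox probes were higher and 5 lower, and Hoxb6 lost its call (adjusted p = 0.0521). The block changed no other Hox call. Over all probes 11103 passed. Deviations of same-numbered arrays correlated at 0.22 over 30012 probes, and with only 2 pairs this does not show that the numbers pair the samples.

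Dim signal limits Hoxb1, Hoxd1 and Hoxd13, whose size depends on the background correction. In a design with 2 arrays per group a probe that did not pass is not shown to be equal.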
